A study of Mus musculus with 4 samples.

Results

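The genes described here are 10 immediate early transcription factor genes, Fos, Fosb, Fosl1, Jun, Junb, Jund, Egr1, Egr2, Egr3 and Atf3, in skin of Tsk1/+ mice. They were chosen by gene symbol: every probe annotated with 1 of the 10 symbols was taken, and the probes of a gene were averaged. All 10 were measured, by 13 of the 32664 probes with 1 gene symbol, among 19532 genes tested. The study measured skin gene expression in mouse models of scleroderma, and the arrays used here are those of the Tsk1/+ model, which carries 1 mutated copy of the gene for the microfibril protein fibrillin-1. The only group is Tsk1/+ skin, with 4 two-colour arrays. On these, skin RNA carried Cy3 and RNA of a common cell-line reference, named UMR in the labels, carried Cy5. Whether that reference held 1 cell line or several was not examined here. Titles number the arrays 1-1, 1-2, 2-1 and 2-2. The labels give no treatment, time, age, sex or skin site, and no label ties the 4 samples to separate animals. The p-values therefore describe the spread among these 4 samples, part or all of which may be technical. No wild-type skin was analysed here, so every value compares Tsk1/+ skin with cultured cells and none describes an effect of the mutation.

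Immediate early genes are transcribed within minutes of a growth factor, wound or stress signal, without new protein synthesis. Their promoters respond to serum response factor with its Elk cofactors and to CREB-type factors, which MAP kinases activate. FOS and JUN proteins pair through leucine zippers to form AP-1, which binds short DNA sites in genes for proteases, cytokines and, in epidermis, differentiation proteins. EGR proteins bind GC-rich sites through zinc fingers, and EGR1 is known as a mediator of profibrotic signalling in skin fibroblasts. ATF3 is a stress-induced bZIP factor that can pair with JUN proteins.

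Promoter windows of 4 members are shown because 3 of them (Fos, Fosb and Junb) were below the reference while Egr2 was above it. Fosl1 and Egr1, the lowest members, and Egr3 did not match the promoter table by symbol, so no window of theirs could be shown. Each runs from 250 bases before to 50 bases after an annotated start in RefSeq (GRCm38.p6), 5′ to 3′ on the gene's strand. Capitals mark matches, on either strand, to the CRE core TGACG, the CRE-like site TGACNTCA, the AP-1 site TGANTCA, the Egr site GCGNGGGCG, TATAAA or the CArG box that serum response factor binds. The Fos window lies at chr12:85473640-85473939 on the plus strand, the Fosb window at chr7:19309996-19310295 on the minus strand and the Junb window at chr8:84978699-84978998 on the minus strand. Egr2 has 5 annotated windows, and the one shown, at chr10:67537619-67537918 on the plus strand, holds a CArG box. The first listed Egr2 window, which the shares below count, is another one and holds none of these matches.
Fos: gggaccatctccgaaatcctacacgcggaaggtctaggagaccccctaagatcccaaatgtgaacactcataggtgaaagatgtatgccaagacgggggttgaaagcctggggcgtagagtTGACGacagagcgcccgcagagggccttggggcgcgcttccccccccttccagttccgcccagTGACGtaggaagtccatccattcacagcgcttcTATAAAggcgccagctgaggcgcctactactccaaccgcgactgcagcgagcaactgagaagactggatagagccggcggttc
Fosb: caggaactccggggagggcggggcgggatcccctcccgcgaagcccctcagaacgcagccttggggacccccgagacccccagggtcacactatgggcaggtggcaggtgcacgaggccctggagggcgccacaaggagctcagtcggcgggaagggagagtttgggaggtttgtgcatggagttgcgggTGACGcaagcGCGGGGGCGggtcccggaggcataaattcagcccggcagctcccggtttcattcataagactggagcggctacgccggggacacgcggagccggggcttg
Junb: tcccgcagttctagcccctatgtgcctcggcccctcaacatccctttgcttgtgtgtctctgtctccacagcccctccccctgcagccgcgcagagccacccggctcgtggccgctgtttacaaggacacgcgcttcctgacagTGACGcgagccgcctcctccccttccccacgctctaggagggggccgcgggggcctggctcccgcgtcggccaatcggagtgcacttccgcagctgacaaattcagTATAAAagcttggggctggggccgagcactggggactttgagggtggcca
Egr2: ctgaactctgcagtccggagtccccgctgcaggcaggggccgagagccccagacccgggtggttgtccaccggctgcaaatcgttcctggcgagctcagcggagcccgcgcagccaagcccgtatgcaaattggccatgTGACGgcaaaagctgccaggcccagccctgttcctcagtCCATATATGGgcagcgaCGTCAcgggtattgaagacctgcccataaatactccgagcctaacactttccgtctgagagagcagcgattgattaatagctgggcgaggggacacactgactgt
The Fos window holds TGACG at bases -129 to -125 and -66 to -62 from the start, and TATAAA at -33 to -28. In the Fosb window TGACG at -60 to -56 is followed by an Egr site at -50 to -42. The Junb window holds TGACG at -106 to -102, and TATAAA at 1 to 6, from the start itself on. In the Egr2 window the CArG box at -72 to -63 lies between TGACG at -111 to -107 and, on the other strand, at -55 to -51.
Of 10 members, 7 matched the promoter table by symbol, and in 4 of these (Fos, Fosb, Junb and Atf3) the first listed window holds TGACG, against 21.0% of 27025 genes with a promoter. TGACNTCA was found in Jun alone among the 7, against 8.97% of all genes, the Egr site in Fosb alone, against 5.55%, and TATAAA in Fos and Junb, against 14.2%. TGANTCA was in none of the first windows of the members, against 7.93%, and the CArG box in none of them, against 1.57%. Some TGACNTCA sites also hold TGACG, but no matches in the windows printed here overlap. These are matches of letters in short windows and describe no binding.

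The sources used here do not give the direction of the deposited log ratio or its base. The likely direction was read from 18 genes of cornified epidermis, a layer that ordinary cultured lines do not form: after all signs were turned, 12 were higher in skin, none lower, and their median log2 ratio was between 4.73 and 5.60 on each array, with Kprp at 8.68 ± 0.93 and Flg2 at 7.47 ± 1.01 (SD, n = 4). Flg was listed at 0 on all 4 arrays and Tgm3 on 3 arrays, with 0.07 on array 2-1. If the ratio ran the other way, every "higher" and "lower" here would swap. Skin carried the same dye on all arrays, and dye effects and differences between skin and reference cannot be told apart. The base was taken as 2, and linear folds rest on that. All 11 keratinocyte genes, all 10 skeletal muscle genes and all 8 measured fat cell genes were higher. So were 8 of 10 dermal fibroblast genes, 6 of 9 measured macrophage genes and 6 of 9 endothelial genes. Of the other macrophage genes, 1 was lower. All 13 measured proliferation genes were lower. In bulk skin, fewer cells of a type and less RNA per cell cannot be told apart. Pearson correlations between arrays, across genes that are not independent replicates, lay between 0.867 and 0.918, so no array's values copy another's. They cannot tell whether arrays repeat the same RNA.

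Immediate early AP-1 and Egr genes stood mostly below the reference. A gene was called at an adjusted p below 0.05 (limma, Benjamini-Hochberg over all 19532 genes) and a mean of at least 1 in either direction on the log2 scale. By this rule 5 members were lower (Fosl1, Egr1, Fosb, Fos and Junb), 1 was higher (Egr2), and 4 were not called. Of all genes tested, 7.52% were lower and 11.0% higher. These genes include those with values that at least 50 probes of an array share. With such values left out, an alternative chosen after seeing the data, 1746 of 11543 genes were lower and 2609 higher, which are larger shares. Of the 10 members, 5 were then lower and 2 higher. The shares of all genes quoted here are thus smaller than those among genes with values of their own. With all values kept, the median of the members was -0.90, against 0.02 for all genes.

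**Figure D1:**
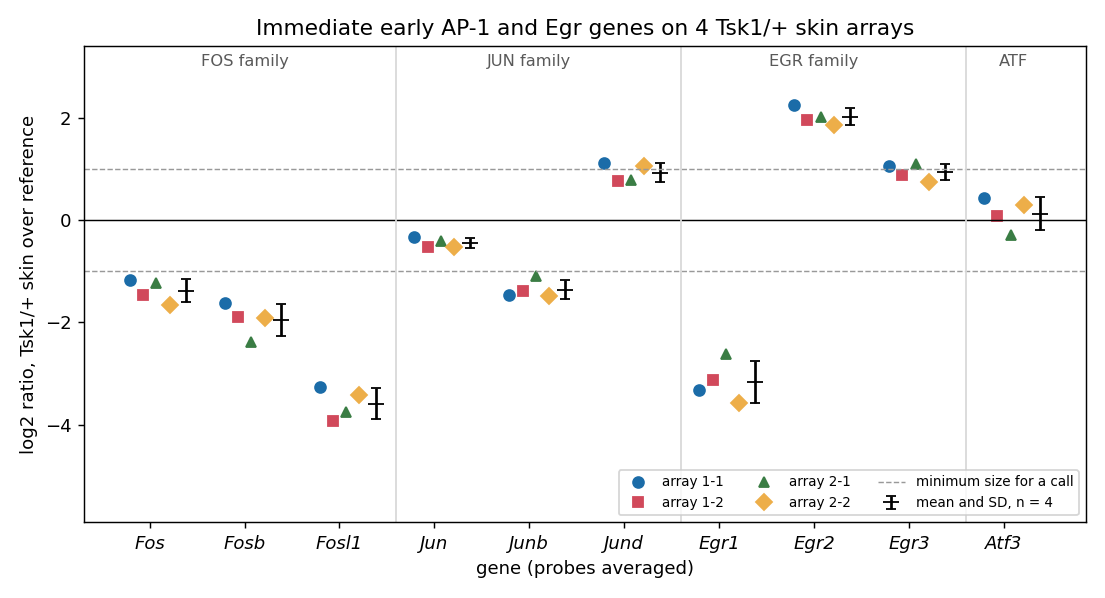
Log2 ratio of Tsk1/+ skin over reference for each gene (x axis) on each of the 4 arrays (coloured points), with the mean and SD beside them. The 4 points of Fosl1 lie between -3.92 and -3.27 and those of Egr2 between 1.85 and 2.24, while those of Atf3 lie on both sides of 0.

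Among the FOS family genes, Fosl1, which encodes the AP-1 subunit FRA-1, was the lowest. Its log2 ratio was -3.27, -3.92, -3.74 and -3.41 on arrays 1-1, 1-2, 2-1 and 2-2, a mean of -3.58 ± 0.30 (SD, n = 4; limma adjusted p = 0.000559), or 12.0-fold below the reference. All 4 arrays were far below 0, and array 1-2 was the lowest. Fosb, whose protein pairs with JUN proteins and whose splice form lacks part of the activation domain, stood at -1.63, -1.90, -2.39 and -1.90. Its mean was -1.95 ± 0.32 (limma adjusted p = 0.00181). Array 2-1 was its lowest, and no array came within 1.6 of 0. The difference between Fosb and Fosl1 was 1.63 ± 0.29 on the log2 scale, between 1.36 and 2.02 on single arrays, so Fosl1 was the farther below the reference on each one.

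Fos, the prototype AP-1 gene, stood at -1.17, -1.46, -1.24 and -1.67 with its probes averaged, a mean of -1.38 ± 0.23 (limma adjusted p = 0.0019). This average joins probes that read very differently. The probe annotated to the RefSeq transcript NM_010234 gave -2.84, -2.95, -2.47 and -3.33, a mean of -2.90 ± 0.35, or 7.45-fold below the reference (limma adjusted p = 0.00172 over all probes). The probe annotated to K02785 gave 0.50 on array 1-1, 0.03 on array 1-2 and an exact 0 on arrays 2-1 and 2-2. Those values were shared by 1625, 2459, 8796 and 11530 probes of the respective arrays, so they are not values of Fos alone. With values that at least 50 probes of an array share left out, an alternative chosen after seeing the data, Fos stood at -2.90.

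Fosl2, which encodes FRA-2 and is not among the 10 genes, gives a contrast within the family. Its ratio was -0.46, 0.07, 0.03 and -0.28, a mean of -0.16 ± 0.26 (limma adjusted p = 0.372), on both sides of 0. The difference between Fosl2 and Fosl1 was 3.43 ± 0.55 and at least 2.80 on each array. One of the Fosl2 probes held shared values on all 4 arrays, and the other had a mean of -0.05 ± 0.31.

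**Figure D2:**
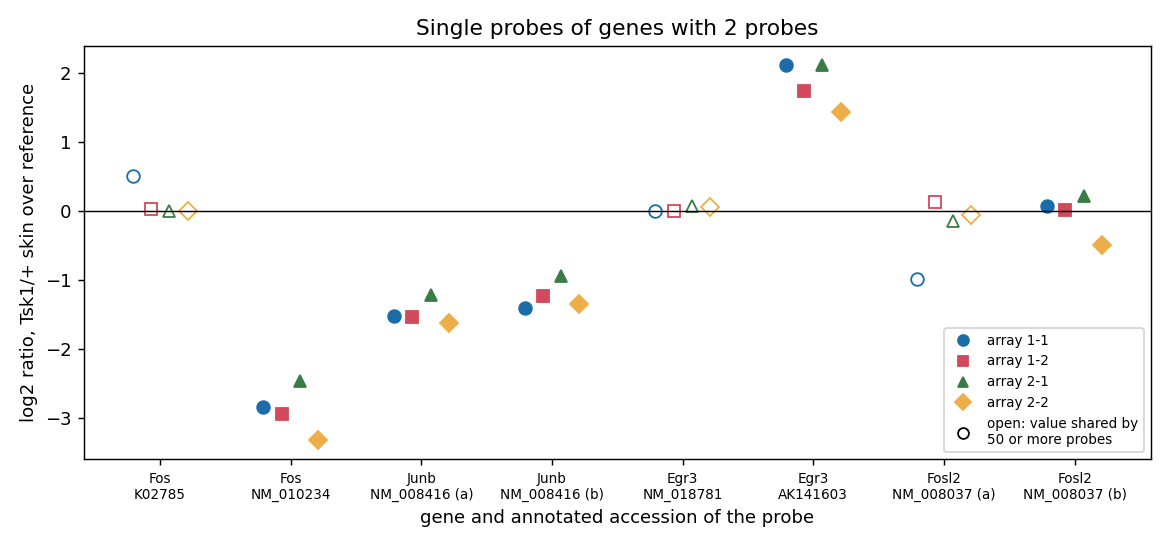
Log2 ratio of Tsk1/+ skin over reference for each probe of the genes with a pair of probes (x axis, with the accession each probe is annotated to), with 1 point per array. Open points are values that 50 or more probes of that array share. The Fos probe of K02785 and the Egr3 probe of NM_018781 are open on all 4 arrays and lie between 0 and 0.50, whereas the partner probes reach -3.33 and 2.12.

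The JUN family genes did not share a direction. Junb, whose protein is a weaker activator than JUN and restrains keratinocyte cytokine expression in mice, was lower. Its ratio was -1.47, -1.39, -1.08 and -1.49, a mean of -1.36 ± 0.19 (limma adjusted p = 0.00132). Both Junb probes gave the same direction on every array, with means of -1.48 ± 0.18 and -1.24 ± 0.20. Jun, the founding partner of FOS, stood at -0.34, -0.53, -0.40 and -0.53. Its mean of -0.45 ± 0.10 had a limma adjusted p of 0.00399 but lay under the minimum size, so it was not called; its SD was the smallest of the 10 genes.

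Jund, the family member that is expressed most constitutively, stood at 1.12, 0.76, 0.77 and 1.06. The mean of 0.93 ± 0.19 (limma adjusted p = 0.00324) fell just short of the minimum size, and all 4 arrays were above 0. On each array the order was Junb, Jun, Jund from low to high. Jund exceeded Junb by 2.29 ± 0.35 (1.86 to 2.59 on single arrays), and Jun exceeded Junb by 0.91 ± 0.19 (0.68 to 1.13).

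The EGR family genes split more widely than the JUN genes. Egr1, a zinc finger factor induced by serum and by TGF-beta in fibroblasts, stood at -3.32, -3.12, -2.61 and -3.57. Its mean was -3.16 ± 0.41 (limma adjusted p = 0.00111), or 8.91-fold below the reference. Every array was below -2.6, and array 2-1 was the nearest to 0. Egr2, also called Krox-20, which has a part in Schwann cell myelination and is expressed in hair follicles, was on the opposite side. It stood at 2.24, 1.95, 2.02 and 1.85, a mean of 2.02 ± 0.17 (limma adjusted p = 0.000557), or 4.04-fold above the reference. The gap between Egr2 and Egr1 was 5.17 ± 0.41, and 4.63 to 5.56 on single arrays.

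Egr3, which regulates muscle spindle development in mice and activation in lymphocytes, stood at 1.06, 0.87, 1.09 and 0.75 with its probes averaged. The mean of 0.94 ± 0.16 had a limma adjusted p of 0.00214 and was not called, being under the minimum size. Without array 2-2 it was called, at 1.01 (limma adjusted p = 0.00816). The probe annotated to the cDNA AK141603 gave 2.12, 1.74, 2.11 and 1.44, a mean of 1.85 ± 0.33 (limma adjusted p = 0.00365 over all probes). The probe of the RefSeq transcript NM_018781 gave exact 0 on arrays 1-1 and 1-2 and 0.07 and 0.06 on arrays 2-1 and 2-2, values that 2166 to 11995 probes shared. With shared values left out, Egr3 stood at 1.85 and was called higher.

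Atf3 was the member nearest to the reference. It stood at 0.43, 0.07, -0.30 and 0.30, a mean of 0.12 ± 0.32 (limma adjusted p = 0.55). The arrays fell on both sides of 0, and a difference between skin and reference was not detectable with these 4 arrays.

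Ranked by mean ratio, the members ran from Fosl1 through Egr1, Fosb, Fos, Junb, Jun, Atf3, Jund and Egr3 to Egr2. This ranks differences between skin and reference and says nothing of transcript levels. Neighbours in this order were not always apart. Egr1 was above Fosl1 on 2 of 4 arrays (0.43 ± 0.63), Junb above Fos on 3 (0.02 ± 0.22), and Egr3 above Jund on 2 (0.01 ± 0.27). The other 6 pairs of neighbours kept their order on all 4 arrays. The places of Fos and Egr3 rest on averages with the probes of shared values. With shared values left out, Fos (-2.90) came below Fosb (-1.95), which turns the order of that pair, and Egr3 (1.85) stood next to Egr2 (2.02).

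With probes averaged, the members had a median SD between arrays of 0.21, against 0.20 over all genes. Both medians include shared values, so they do not compare the spread of genes with values of their own. The SD of Fos was 0.23 with its probes averaged and 0.35 for the probe of the RefSeq transcript. For Egr3 it was 0.16 averaged and 0.33 for the probe of AK141603. Egr1 had the widest spread, 0.96 between its highest and lowest array. Egr1 and both Junb probes were highest on array 2-1, where the Fos probe of the RefSeq transcript was highest as well. That array was at the same time the lowest for Fosb and Atf3, so the members did not move as one. On array 2-2, 5 of the 10 members (Egr1, Junb, Fos, Egr2 and Egr3) were lowest and none highest, with Jun equal there and on array 1-2. On array 1-1, 7 members were highest and none lowest. Fos was among them with its probes averaged, though its probe of the RefSeq transcript was highest on array 2-1. Egr3 was not, though its probe of AK141603 was highest on array 1-1 (2.12, against 2.11 on array 2-1). Over all 19532 genes, leaving out ties, 3878 were lowest and 4509 highest on array 2-2, and 4080 were lowest and 5377 highest on array 1-1. Of the skin cell markers, 9 of 10 muscle genes, 6 of 8 fat cell genes and 6 of 11 keratinocyte genes were highest on array 2-2. Other cell types were more mixed there. Of 9 macrophage genes 5 were highest and 3 lowest, and of 9 endothelial genes 3 were highest and 4 lowest. Of 10 fibroblast genes 4 were highest and 1 lowest, and of 18 cornified genes 8 and 1. Among 4020 genes with a mean of at least 1 in size, 1322 were highest on array 1-1 and 1231 on array 2-2. The median muscle ratio was 6.10, 5.62, 5.55 and 6.64 on arrays 1-1, 1-2, 2-1 and 2-2. The part of these markers in the values of the members was not tested.

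**Figure D3:**
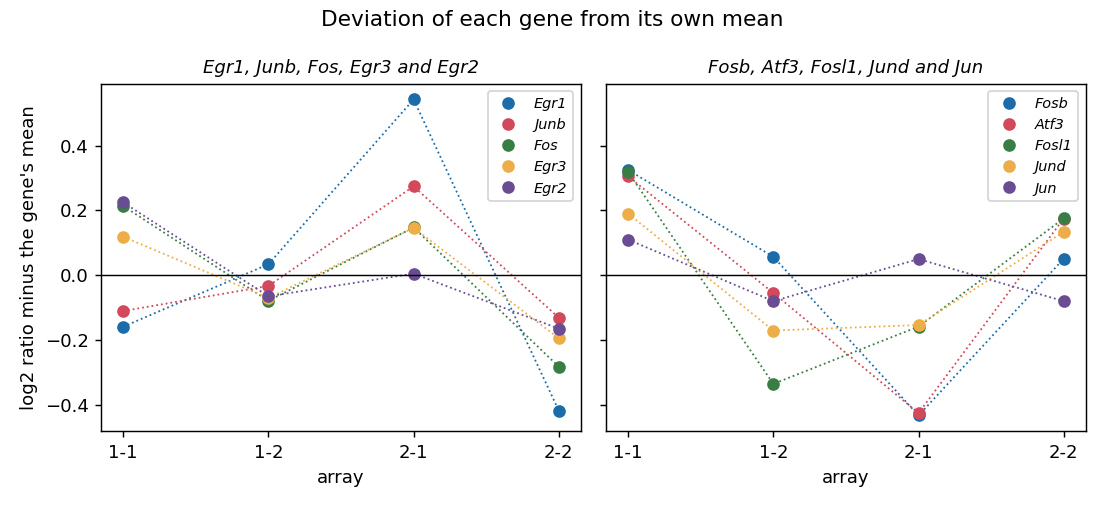
Deviation of each gene's log2 ratio from its own mean (y axis) on each array (x axis). Dotted lines join the points of a gene and imply no order of arrays. Egr1 runs from 0.54 on array 2-1 to -0.42 on array 2-2, while Fosb and Atf3 reach -0.43 on array 2-1.

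Splitting the arrays by the first title number, whose meaning the labels do not give, called none of 19511 genes (limma, 0% called; 781 had an unadjusted p below 0.05). The members differed by between -0.14 (Junb) and 0.38 (Fosb) for number 1 minus number 2, with limma adjusted p of 0.957 or more. By the second title number 1 gene was called (limma, 0.00513%), and 966 had an unadjusted p below 0.05. The called gene was Scin, an actin-severing protein, named here after its values were seen: it was listed at 0 on arrays 1-1 and 2-1, and number 1 minus number 2 was -7.02. No member was called. Fos (0.36), Jun (0.16) and Egr3 (0.27) had unadjusted p-values of 0.0418, 0.0447 and 0.0334, each with a limma adjusted p of 0.907. The values of Fos and Egr3 are averages with probes of shared values. With shared values left out, their differences were 0.485 and 0.5255, each with a limma adjusted p of 0.999.

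The partners and regulators of these genes were read from lists chosen with earlier results of these data known. Of 19 measured AP-1 and CREB/ATF partners, 4 were higher and 3 lower, with a median of 0.02. The highest were Batf3, which dendritic cells need for their cross-presenting lineage (1.86 ± 0.39), and Batf2 (1.39 ± 0.19). The lowest were Atf4, the effector of the integrated stress response (-1.31 ± 0.13), and the unfolded protein response factor Atf6 (-1.28 ± 0.23). These shares, 21.1% higher and 15.8% lower, compare with 11.0% and 7.52% of all genes.

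Of 19 measured serum response and MAP kinase genes, 3 were higher and 1 was lower, with a median of 0.04. These shares, 15.8% and 5.26%, lie near the 11.0% and 7.52% of all genes. The highest were the p38 kinases Mapk13, an epidermal isoform (4.57 ± 0.47), and Mapk12, a muscle isoform (2.34 ± 0.11). Elk3, a cofactor of serum response factor, was lower (-1.60 ± 0.09), and Rps6ka5 stood at -0.71 ± 0.17 and was not called. Of 4 further Egr-related genes, Wt1, whose zinc fingers bind Egr-like sites, was lower (-2.97 ± 0.33). The corepressors Nab2 (-0.32 ± 0.31) and Nab1 (-0.27 ± 0.29) were not called, and Egr4 was listed at 0 on all arrays but 1-1, where it stood at 0.16.

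Among feedback inhibitors and other immediate early genes, more were lower than higher. Of 13 measured feedback phosphatases and inhibitors, 4 were lower and 1 was higher, with a median of -0.43 and 30.8% lower against 7.52% of all genes. The MAP kinase phosphatases Dusp4 (-2.18 ± 0.33) and Dusp2 (-1.32 ± 0.12) were lowest, and the receptor signalling inhibitor Spry1 was higher (1.63 ± 0.25). Zfp36l2 followed at 0.63 ± 0.62, not called. Of 33 other immediate early genes, 13 were lower and 3 higher, or 39.4% and 9.09%, with a median of -0.41. Ptgs2, the inducible cyclooxygenase (-4.03 ± 0.60), and Ccn1, a matricellular protein (-2.53 ± 0.08), were lowest. The Krüppel-like factors Klf4, which epidermal barrier formation requires (3.31 ± 0.26), and Klf2, an endothelial and T cell factor (2.16 ± 0.23), were highest, so the immediate early class as a whole had no single direction.

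Of 21 measured genes known as AP-1 or Egr targets, 10 were lower and 2 higher, with a median of -0.97. These are 47.6% lower and 9.52% higher, against 7.52% and 11.0% of all genes. The chemokine Cxcl1 (-5.68 ± 0.24) and the collagenase Mmp13 (-2.50 ± 0.23) were lowest. Icam1, a leukocyte adhesion receptor (1.39 ± 0.24), and F3, tissue factor (1.24 ± 0.09), were highest. These genes have many other regulators, and their control was not measured.

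**Figure D4:**
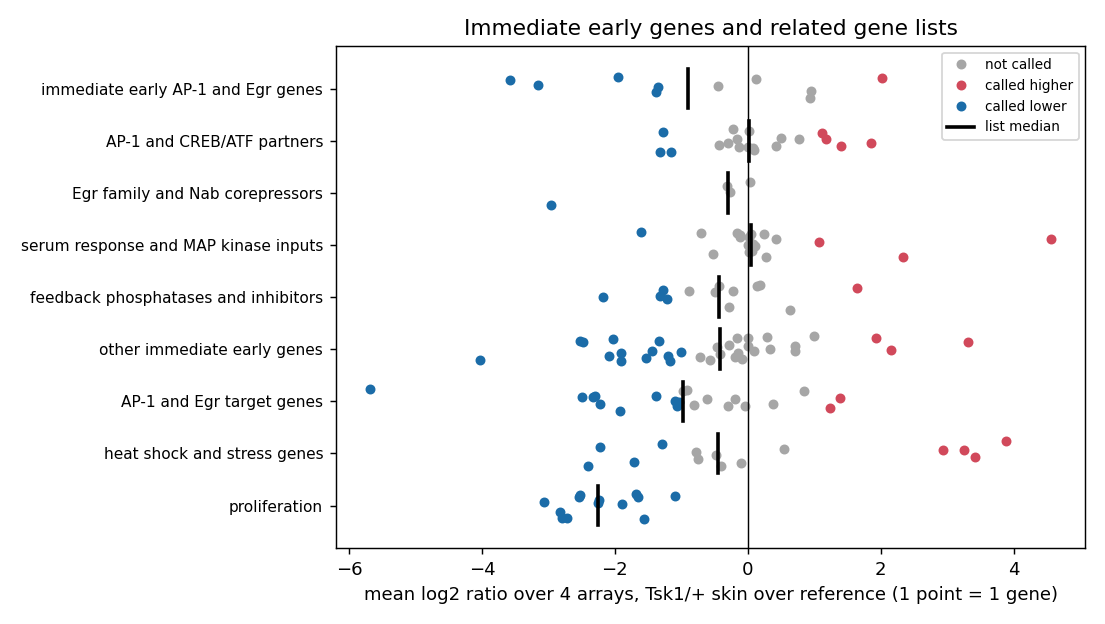
Mean log2 ratio of skin over reference (x axis) of each measured gene (points) in the immediate early AP-1 and Egr genes, 7 related gene lists and the proliferation list, with list medians as black bars. Medians run from 0.04 for serum response and MAP kinase inputs to -0.97 for AP-1 and Egr targets and -2.26 for proliferation genes, and the members lie at -0.90.

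The genes most like Fos and Egr1 were taken by the smallest Euclidean distance between log2 ratios over the 4 arrays, among all genes with a value on each. For Fos with its probes averaged these were Arl14ep (distance 0.109), Chchd4 (0.181) and Ints13 (0.191). This average includes the Fos probe of shared values. The genes nearest to the Fos probe of the RefSeq transcript, which stood at -2.90, were not sought. For Egr1 they were Lox, a collagen cross-linking enzyme (0.393; mean -3.08 ± 0.27), the glycolytic enzyme Pgam1 (0.478; -3.27 ± 0.19) and Fgf21, a metabolic hormone (0.608; -3.24 ± 0.25). Likeness over 4 arrays rests mostly on a similar mean ratio.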

How the data were processed

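Skin RNA of Tsk1/+ mice was measured against a common cell-line reference on 4 two-colour arrays. Per the labels, total RNA was amplified with an Agilent Quick-Amp kit. The deposited values are log ratios, 1 per probe and array, treated here as log2: the largest size was 10.0, past the 4.82 that a 16-bit scanner spans in log10, and log2 and natural log were not told apart by this. How background and normalization were handled is not given in the sources used here, and the deposited median was 0 on each array, with 21.4% to 29.1% of values an exact 0 and 50.8% to 59.5% shared by at least 50 probes. Probes were named by the platform annotation and updated through Entrez IDs (32524 of 32664 matched, GRCm38.p6). Exact zeros were kept. Genes needed values on at least 3 arrays. They were tested with limma 3.58.1 in R 4.3.3 (mean against 0, and 2 against 2 by title number). The method was tested on simulated data drawn from normal distributions. Those data held no exact zeros and no shared values, so that test does not cover such values. Figures were drawn with matplotlib 3.10.9. Members and lists were chosen with earlier results of these data known. Text names all members, Fosl2, the 2 highest and 2 lowest genes of each list related to the members, and the 3 genes nearest to Fos and Egr1. Of the cell type lists, only counts and the 2 highest and 2 lowest cornified genes are given. List genes without a named probe were not analysed here. Alternatives covered zeros, probes, scaling, centring, title-number blocks, a 2-fold test and each array left out.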

Additional observations from a re-analysis of the deposited data

How the results depend on the processing

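No paired analysis was possible because the arrays form 1 group. Fosl1, Fosb, Egr1 and Egr2 kept their calls under all 14 alternatives, Jun, Jund and Atf3 stayed uncalled, and no member changed sign, except that the Fos probe with shared values stood at 0.13 on its own. Egr3 was called with exact zeros left out (1.43), with 1 probe per gene (1.85), without array 2-2 and with shared values left out, so 2 members were then higher; leaving out 1 array gave 1 to 2 members higher. With limma's treat, a test against a 2-fold change, 3 members were lower, without Fos (adjusted p = 0.0987) and Junb (adjusted p = 0.0735), and over all genes the counts were 1338 higher and 694 lower. Treat uses a stricter null. By second title number, 0 genes were called with zeros left out, with quantile normalization or with shared values left out. None of 80 alternative member tests of the title-number splits passed (limma). With arrays averaged by first title number, the adjusted p of the 6 called members reached 0.0345 at most. The number of arrays limits the precision.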

Other observations

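Heat shock and stress genes, a list that is often induced together with immediate early genes, were split. Of 14 measured, 4 were higher and 4 lower, or 28.6% in each direction against 11.0% higher and 7.52% lower of all genes, with a median of -0.44. The inducible chaperone gene Hspa1a (3.89 ± 0.20, SD, n = 4) and the small heat shock gene Hspb1 (3.42 ± 0.13) were highest, and every array of both was above 3.2. The mitochondrial chaperonin gene Hspe1 (-2.40 ± 0.27) and Chac1, a glutathione-degrading enzyme of the integrated stress response (-2.22 ± 0.26), were lowest. Hspa1a has a near-identical copy, Hspa1b, which the probes may not tell apart.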
